A study of Mus musculus with 8 samples.

Results

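Interferon-stimulated genes were described in livers of male mice on a high-fat diet (HFD). They were chosen by symbol, as 36 genes that interferons are known to induce, and all 36 were found among the 18095 genes of the raw count table through the GRCm38 annotation. Of these, 35 had enough reads to be tested. *Ifi44* did not.

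RNA was sequenced from 4 livers labelled WT and 4 labelled Inpp4b-/-, each from 1 male killed at 12 weeks. They are called HFD WT and HFD Inpp4b-/- here. The HFD WT and HFD Inpp4b-/- males shared the diet, which is given for the series as a whole and which their dams had also received. The Inpp4b-/- line lacks the lipid phosphatase INPP4B in the whole animal, so no cell type is singled out by the deletion. The strain is C57BL/6 in the sample labels and FVB in the study's methods. The labels name rRNA removal with Ribo-Zero before NEBNext Ultra library preparation, while the methods name the library kit only. *Inpp4b* itself was not lower in the libraries labelled Inpp4b-/-. It had 0.465 ± 0.306 CPM (counts scaled to a library total of 1000000; SD, n = 4) there and 0.332 ± 0.207 CPM (SD, n = 4) in HFD WT (two-sided exact permutation test, p = 0.486), so each direction given here rests on the labels. Totals were 32738435 to 36662531 counts in HFD Inpp4b-/- and 25893430 to 31427831 in HFD WT. In bulk liver, fewer cells of a type and less RNA per cell cannot be told apart.

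Cells meet viral nucleic acids with sensor proteins that switch on type I interferons, and T cells and NK cells secrete interferon gamma. Type I interferon acts through its receptor on JAK kinases and on a complex with STAT2 and IRF9, which binds the interferon-stimulated response element (ISRE). Genes induced by interferon gamma often carry the gamma-activated site (GAS). In liver, hepatocytes, Kupffer cells and endothelial cells all respond.

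Taken gene by gene, the induced genes leaned towards higher levels in HFD Inpp4b-/- livers, but a single one passed the test. Of the 35, 27 (77.1%) had a positive log2 fold change and 8 a negative one, and the median was 0.22 on the log2 scale. Among all 14866 tested genes, 50.4% were positive and the median was 0.00. The 35 genes varied together across libraries (median Pearson's r of 0.28 between pairs), so they do not count as 35 separate observations. Between libraries of a genotype, the SD of their median was 0.16 on the log2 scale. The lean as a whole was not tested. *Igtp* was the 1 gene that passed, higher in HFD Inpp4b-/- (edgeR's quasi-likelihood test, adjusted p under 0.10 and fold over 1.3), and none passed as lower. Across all tested genes 1.17% were called by the same rule, 0.552% as higher and 0.619% as lower. An unadjusted p under 0.05 was reached by 4 genes, *Igtp*, *Ifit1*, *Usp18* and *Gbp7*, all higher, and 0 were lower, against 6.8% of all tested genes that were higher and 7.14% that were lower at that level. In 2 genes, *Igtp* and *Ifit1*, every HFD Inpp4b-/- library lay above every HFD WT library, a pattern seen in 4.63% of all tested genes. The reverse pattern was seen in 0 of the 35 and in 4.09% of all tested genes. The p-values measure the spread between these 8 mice.

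**Figure D1:**
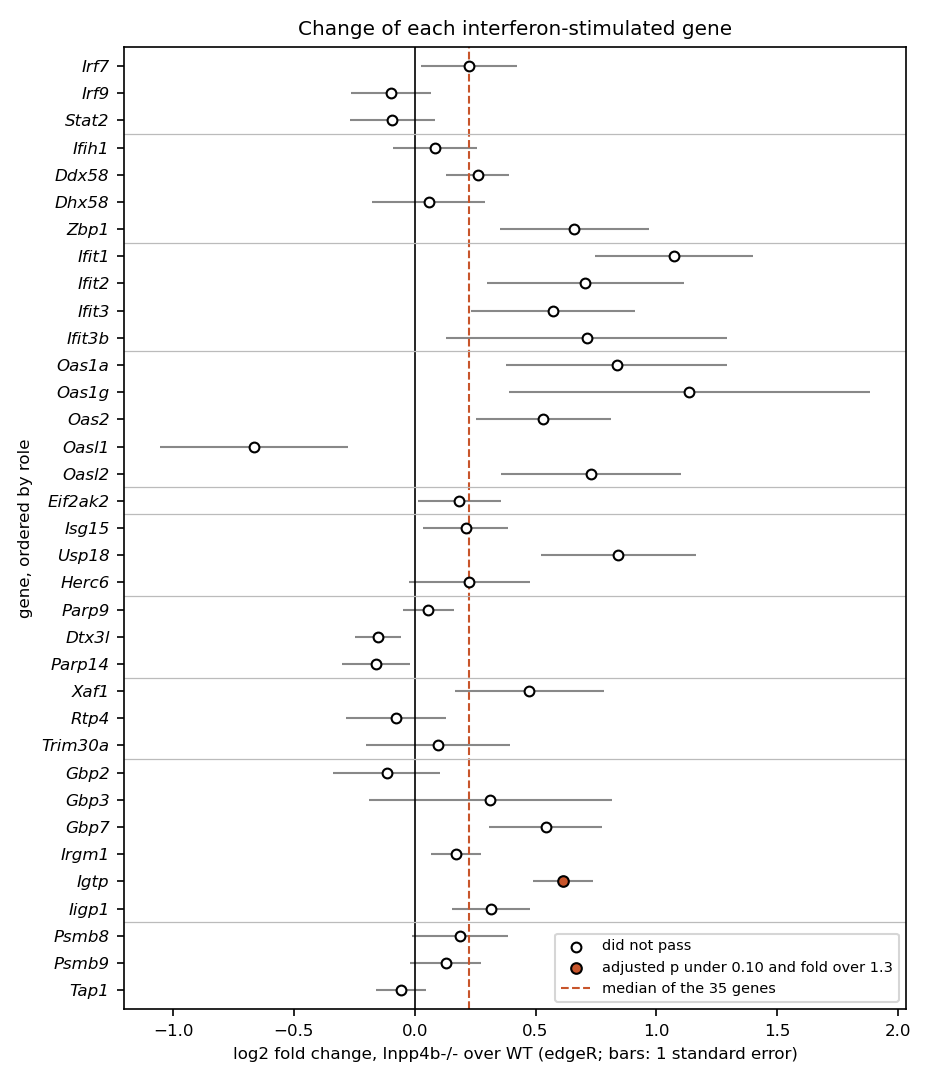
Log2 fold change of each of the 35 tested genes, HFD Inpp4b-/- over HFD WT, with bars of 1 standard error and gene classes divided by grey lines. Only *Igtp* (filled) passed the test, and 27 of the 35 points lie to the right of 0, around a median of 0.22 (dashed line).

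Both elements were sought by their letters in RefSeq promoters (GRCm38.p6, 250 bases before the start site to 50 after it), which were at hand for 28 of the 36 genes. The ISRE was searched on both strands as 2 copies of GAAA with any 2 bases between them, and the GAS as TTCNNNGAA, which reads the same on both strands. Neither pattern holds the other, although their matches can overlap. An ISRE was found in 16 of the 28 genes (57.1%), against 3.99% of all 27025 genes with a promoter. A GAS was found in 6 of the 28 (21.4%), against 9.55% of all genes. Stretches before the start site are printed for the 2 genes whose groups did not overlap, *Igtp* and *Ifit1*, for *Irgm1*, a relative of *Igtp* with a smaller difference, and for *Isg15* and the pair *Oas1a* and *Oas1g*, 5′ to 3′ on the strand of the gene. Capitals mark the bases of ISRE and GAS matches. On the other strand GAAA reads TTTC.
Igtp: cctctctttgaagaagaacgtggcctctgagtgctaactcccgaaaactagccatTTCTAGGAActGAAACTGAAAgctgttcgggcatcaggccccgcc
Irgm1: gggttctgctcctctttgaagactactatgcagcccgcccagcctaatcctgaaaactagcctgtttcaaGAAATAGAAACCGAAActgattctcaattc
Ifit1: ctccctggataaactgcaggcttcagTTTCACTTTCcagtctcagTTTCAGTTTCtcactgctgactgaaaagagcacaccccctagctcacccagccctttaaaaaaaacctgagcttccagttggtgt
Isg15: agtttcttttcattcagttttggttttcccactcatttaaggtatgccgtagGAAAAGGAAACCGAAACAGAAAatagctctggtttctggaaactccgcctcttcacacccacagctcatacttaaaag
Oas1a: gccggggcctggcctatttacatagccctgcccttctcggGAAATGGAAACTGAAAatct
Oas1g: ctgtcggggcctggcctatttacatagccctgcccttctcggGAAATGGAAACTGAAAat
They lie at chr11:58199456-58199555 (plus strand) for *Igtp*, chr11:48871421-48871520 (minus) for *Irgm1*, chr19:34640759-34640888 (plus) for *Ifit1*, chr4:156200819-156200948 (minus) for *Isg15*, chr5:120907526-120907585 (minus) for *Oas1a* and chr5:120887614-120887673 (minus) for *Oas1g*. The *Igtp* stretch holds a GAS and an ISRE side by side, from 45 to 37 and from 34 to 25 bases before the start site. *Isg15* has 3 ISRE matches that overlap in a row, and *Oas1a* and *Oas1g* each have 2 that overlap, close to the start site. Of the 16 genes with an ISRE, 14 were higher in HFD Inpp4b-/-, at a median log2 fold change of 0.29. Of the 11 tested genes without one, 7 were higher, at a median of 0.19. All 6 genes with a GAS (*Igtp*, *Gbp7*, *Oas1a*, *Ifit2*, *Eif2ak2* and *Psmb8*) were higher, with a median of 0.58, as were 15 of the 21 without one, with a median of 0.21. These splits are descriptions, and the differences between them were not tested.

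The interferon-inducible GTPases, which attack the vacuoles and membranes around intracellular pathogens, held the gene that passed. *Igtp* (ENSMUSG00000078853, chromosome 11, 58199556 to 58207591) encodes IRGM3, a regulator of other IRG proteins that is found on the endoplasmic reticulum and on lipid droplets. Replicates 1 to 4 had 32.4, 34.9, 32.9 and 40.6 CPM in HFD WT and 55.3, 65.2, 47.2 and 47.6 CPM in HFD Inpp4b-/-. The groups did not overlap, and HFD Inpp4b-/- replicate 2 was the highest. Its log2 fold change was 0.61 (standard error 0.12, edgeR adjusted p = 0.0804). The call was lost when any one of HFD WT replicates 1 to 3 or HFD Inpp4b-/- replicates 1 to 3 was left out (edgeR adjusted p from 0.101 to 0.206), and it held without either replicate 4. *Igtp* shares 162 of its 2022 exonic bases, on the same strand, with its neighbour *Irgm2*. Reads from those bases could come from either gene, and how they were counted was not tested. *Irgm2*, chosen after its values were seen, had a log2 fold change of 0.81 (edgeR adjusted p = 0.164).

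Other GTPases did not pass. *Gbp7* had 9.40, 12.4, 5.22 and 8.49 CPM in HFD WT replicates 1 to 4 and 10.5, 15.1, 13.0 and 13.2 CPM in HFD Inpp4b-/-. HFD WT replicate 2 lay among the HFD Inpp4b-/- values and replicate 3 far below them, and the log2 fold change was 0.54 (standard error 0.23, edgeR adjusted p = 0.342). *Iigp1*, on chromosome 18, was the most abundant of all 36 genes per exonic length, at 57.6 RPKM (CPM per 1000 exonic bases) in HFD Inpp4b-/- and 46.2 in HFD WT, ahead of *Igtp* at 26.6 and 17.4. It had 342, 253, 204 and 277 CPM in HFD WT and 331, 390, 347 and 273 CPM in HFD Inpp4b-/-. These values overlapped, with a log2 fold change of 0.32 (edgeR adjusted p = 0.417). *Irgm1*, which controls other IRG proteins, ranged from 29.1 to 39.7 CPM in HFD WT and from 35.5 to 40.1 in HFD Inpp4b-/- (log2 fold change 0.17). Of the guanylate-binding proteins, *Gbp3* had a log2 fold change of 0.31 with 0.295 CPM in HFD WT replicate 1 and 1.52 to 2.73 in the other 3, and without that library the value was -0.03. *Gbp2* had a log2 fold change of -0.12. GBP and IRG genes lie among close relatives, so some reads may fit more than 1 of them, which was not tested. Over the 6 GTPase genes the median log2 fold change was 0.32, and 5 were positive and 1 called.

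**Figure D2:**
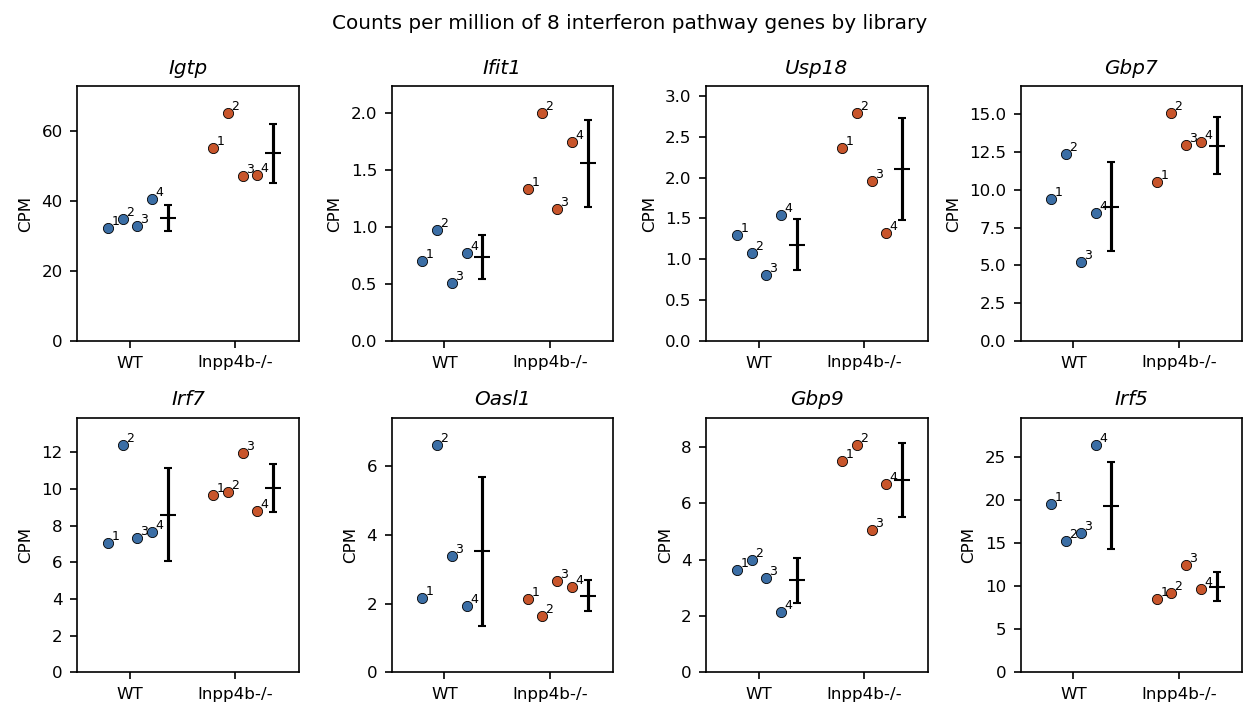
CPM of 8 genes in HFD WT (blue) and HFD Inpp4b-/- (orange) libraries, with replicate numbers beside the points and the mean ± SD (n = 4) as a bar. *Igtp*, *Ifit1* and *Gbp9* show no overlap with HFD Inpp4b-/- above, *Irf5* none with it below, and HFD WT replicate 2 stands high in *Irf7* and *Oasl1*.

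IFIT proteins bind foreign RNA and restrain its translation. All 4 *Ifit* genes, neighbours on chromosome 19, were higher in HFD Inpp4b-/-, with a median log2 fold change of 0.71, and 0 passed. *Ifit1* (ENSMUSG00000034459, chromosome 19, 34640871 to 34650009) had 0.701, 0.976, 0.505 and 0.768 CPM in HFD WT and 1.33, 1.997, 1.16 and 1.74 CPM in HFD Inpp4b-/-. The groups did not overlap, at 15 to 31 counts per HFD WT library. The log2 fold change was 1.07 (standard error 0.33, edgeR adjusted p = 0.201). DESeq2 called it (adjusted p = 0.0583), the only other of the 36 it called being *Igtp*, both higher, while it called 1.92% of all genes as higher and 2.12% as lower. *Ifit2* (0.71), *Ifit3* (0.57) and *Ifit3b* (0.71) had log2 fold changes of like size, with overlapping groups. *Ifit3b* was counted 3 and 4 times in HFD WT replicates 4 and 3 and 20 times in replicate 1, without which its log2 fold change was 1.32. *Ifit3* and *Ifit3b* are close relatives, whose RefSeq promoters match at 76.2% of aligned positions. That figure does not bear on their exonic reads, and how reads that fit both genes were counted was not tested.

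OAS enzymes make oligoadenylates that activate RNase L when they meet double-stranded RNA. Of the 5 *Oas* and *Oasl* genes, all on chromosome 5, 4 were positive and 0 called, and their median log2 fold change was 0.73. *Oas2* ranged from 1.01 to 2.14 CPM in HFD WT and from 1.97 to 2.87 in HFD Inpp4b-/- (log2 fold change 0.53), and *Oasl2* from 0.422 to 1.31 and from 1.25 to 2.16 (0.73). The copies *Oas1a* (0.84) and *Oas1g* (1.14), whose promoters match at 85.3% of aligned positions, rested on few reads: *Oas1g* was counted 3, 2, 4 and 17 times in HFD WT. Without HFD WT replicate 4 its log2 fold change was 2.31, and without HFD WT replicate 2 that of *Oas1a* was 1.40. *Oasl1*, which in mice holds back translation of IRF7, was the 1 gene of the class with a negative value. It had 2.18, 6.61, 3.37 and 1.92 CPM in HFD WT and 2.14, 1.63, 2.67 and 2.47 CPM in HFD Inpp4b-/-. HFD WT replicates 2 and 3 lay above all HFD Inpp4b-/- values, replicate 2 far above, and replicates 1 and 4 lay among them. The log2 fold change was -0.67 (standard error 0.39, edgeR adjusted p = 0.482), and -0.17 without HFD WT replicate 2.

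ISG15 is a ubiquitin-like protein that is joined to other proteins, by HERC6 in mice, and removed by USP18, which also dampens signalling from the type I interferon receptor. *Usp18* had 1.29, 1.07, 0.809 and 1.54 CPM in HFD WT and 2.36, 2.79, 1.96 and 1.32 CPM in HFD Inpp4b-/-. HFD Inpp4b-/- replicates 1 to 3 lay above all HFD WT values and replicate 4 among them. The log2 fold change was 0.84 (standard error 0.32, edgeR adjusted p = 0.285). *Isg15* ranged from 3.74 to 5.92 CPM in HFD WT and from 5.13 to 6.04 in HFD Inpp4b-/- (log2 fold change 0.21). *Herc6* ranged from 5.66 to 10.9 and from 7.36 to 13.9 CPM (0.23), and its log2 fold change was -0.02 without HFD Inpp4b-/- replicate 2.

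The 4 sensors of foreign nucleic acids were all positive, at a median log2 fold change of 0.17. The RNA helicases *Ddx58* (RIG-I), *Ifih1* (MDA5) and *Dhx58* (LGP2) had log2 fold changes of 0.26, 0.09 and 0.06, and *Zbp1*, a sensor of Z-form nucleic acid, 0.66, none of which passed (edgeR adjusted p from 0.381 to 0.940). *Ddx58* had 14.4, 21.5, 15.6 and 16.0 CPM in HFD WT and 19.3, 21.5, 20.1 and 20.02 CPM in HFD Inpp4b-/-. HFD WT replicate 2 was level with the highest HFD Inpp4b-/- library and the other 3 HFD WT libraries lay below all of them. *Eif2ak2*, the kinase PKR that halts translation on binding double-stranded RNA, had 16.9 CPM in HFD WT replicate 2, above all HFD Inpp4b-/- libraries (13.6 to 15.1). The other 3 HFD WT libraries, at 9.06 to 12.7 CPM, lay below them (log2 fold change 0.18).

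Of the 3 transcription factors of the response, 1 was positive and 2 were negative. *Irf7*, which drives interferon genes and is itself induced, had 7.04, 12.4, 7.31 and 7.64 CPM in HFD WT and 9.66, 9.83, 11.9 and 8.82 CPM in HFD Inpp4b-/-. Again HFD WT replicate 2 was above, and the other 3 below, all HFD Inpp4b-/- values, and the log2 fold change was 0.22 (standard error 0.20, edgeR adjusted p = 0.662), or 0.45 without HFD WT replicate 2 (adjusted p = 0.185). *Stat2* and *Irf9*, whose products bind the ISRE together, had log2 fold changes of -0.09 and -0.10, with a wider range in HFD WT than in HFD Inpp4b-/-, 71.5 to 125 CPM for *Stat2* and 19.4 to 31.97 for *Irf9*. The log2 fold changes of *Parp9*, *Dtx3l* and *Parp14*, which encode a partner pair and an ADP-ribosyltransferase of interferon signalling, were 0.06, -0.15 and -0.16. *Parp9* and *Dtx3l* lie on opposite strands and share 458 exonic bases. *Dtx3l* had 71.5, 62.8, 63.0 and 54.5 CPM in HFD WT and 51.8, 58.1, 58.5 and 58.2 CPM in HFD Inpp4b-/-, so its groups overlapped through HFD WT replicate 4.

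The immunoproteasome genes *Psmb8* and *Psmb9* and the peptide transporter gene *Tap1*, which prepare peptides for MHC class I and lie side by side on chromosome 17, had log2 fold changes of 0.19, 0.13 and -0.06. *Psmb9* and *Tap1* share 212 exonic bases on opposite strands. *Xaf1*, a pro-apoptotic gene, ranged from 1.25 to 3.15 CPM in HFD WT and from 2.25 to 3.86 in HFD Inpp4b-/- (0.47), while *Trim30a* (0.10) and *Rtp4* (-0.08), which encodes a chaperone of receptor transport, were near 0. *Ifi44*, the gene below the filter, had 0.135 to 0.192 CPM in HFD WT and 0.555, 0.920, 0.0965 and 0.337 CPM in HFD Inpp4b-/-. HFD Inpp4b-/- replicate 3 was below all HFD WT values, and the other 3 were above them (two-sided exact permutation test, p = 0.143, where 0.029 is the smallest p that 4 against 4 allows).

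Single libraries recurred at the ends of the range. HFD WT replicate 3 was the lowest of all 8 libraries in 18 of the 35 genes, a count not made over all tested genes. It was the lowest of the 4 HFD WT libraries in 19 of the 35, a place it held in 21.1% of all tested genes. HFD WT replicate 2 was the highest HFD WT library in 15 of the 35, while it held that place in 26.2% of all tested genes. Among the HFD Inpp4b-/- libraries, replicate 1 was the lowest in 16 of the 35, against 24.6% of all tested genes. Replicates 2 and 3 of that genotype were its highest in 13 and 12, against 23.0% and 25.5%. When each gene was set to a mean of 0 and an SD of 1 over the 8 libraries, the mean over the 35 genes was -0.17, 0.26, -1.08 and -0.25 in HFD WT replicates 1 to 4 and 0.06, 0.58, 0.47 and 0.11 in HFD Inpp4b-/-. The second HFD WT mouse was thus above 2 of the 4 HFD Inpp4b-/- mice. Without HFD WT replicate 3 the median log2 fold change of the genes was 0.17, and without replicate 2 it was 0.34. The classes were not alike in this. HFD WT replicate 1 was the lowest library for the sensors after replicate 3 but the highest for *Parp9*, *Dtx3l* and *Parp14* together, at 1.44, and HFD WT replicate 4 was the highest for the antigen processing genes, at 0.94.

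**Figure D3:**
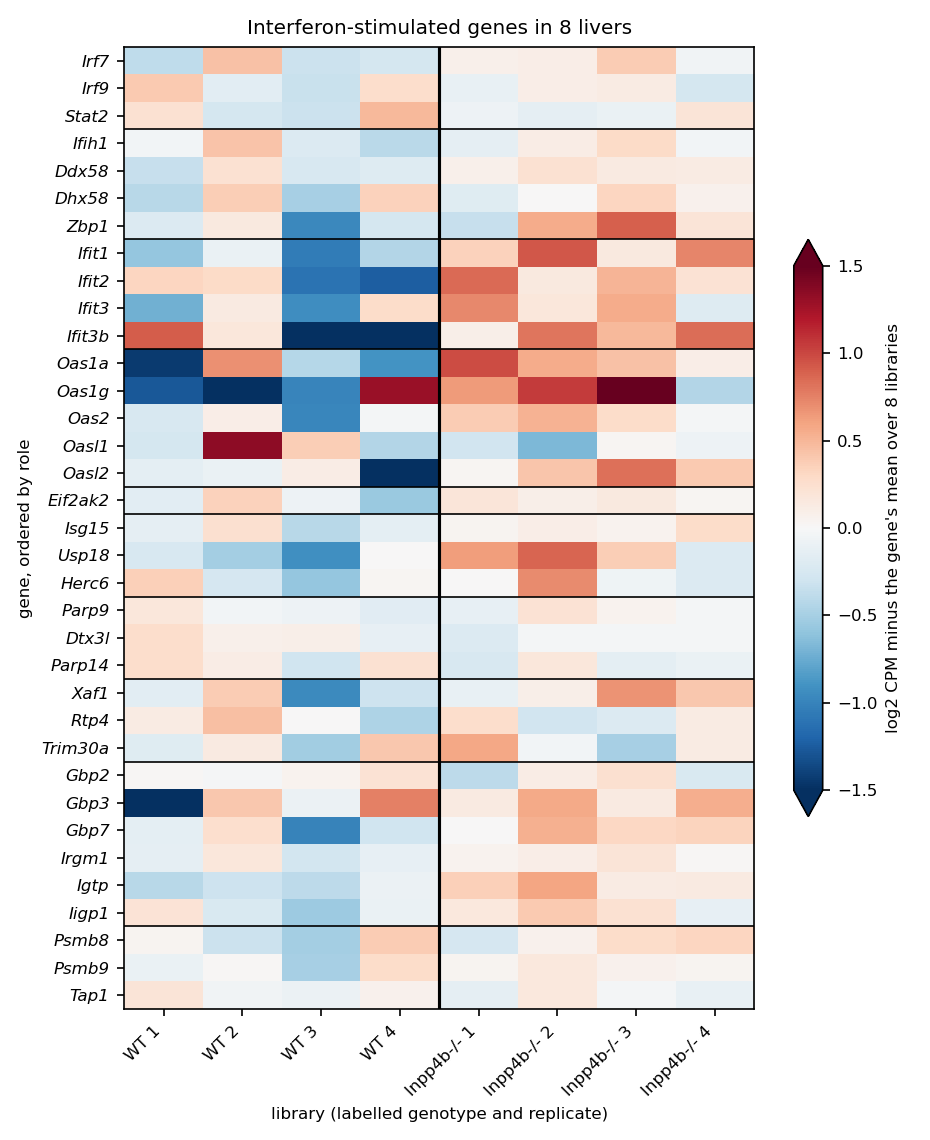
Log2 CPM of the 35 tested genes in 8 libraries, as the difference from each gene's mean, with gene classes divided by horizontal lines and the genotypes by the vertical line. HFD WT replicate 3 is lowest of all 8 in 18 genes. The largest single departure is that of *Gbp3* in HFD WT replicate 1 (0.295 CPM), and other large ones are in genes of few reads such as *Oas1g* and *Ifit3b*.

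**Figure D4:**
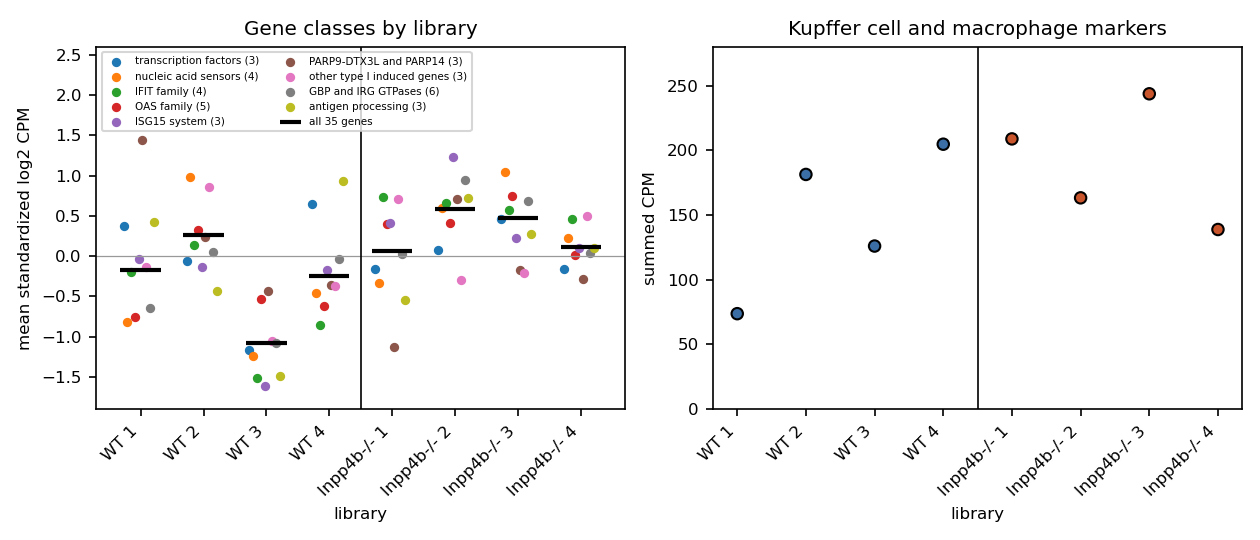
Left, mean standardized log2 CPM per library for the gene classes of 3 or more genes (number of genes in brackets) and, as a bar, for all 35 genes, which ranges from -1.08 in HFD WT replicate 3 to 0.58 in HFD Inpp4b-/- replicate 2. Right, summed CPM of 10 Kupffer cell and macrophage markers, whose lowest library is HFD WT replicate 1.

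Markers of cells that respond to or make interferon were read beside these genes. The 10 Kupffer cell and macrophage markers summed to 138.8 to 243.8 CPM in HFD Inpp4b-/- and 73.7 to 204.8 in HFD WT, with 9 of 10 higher, a median log2 fold change of 0.35 and 0 called. Their lowest library was HFD WT replicate 1, while the interferon-stimulated genes were lowest in HFD WT replicate 3. Of 4 plasmacytoid dendritic cell markers, *Siglech*, *Ccr9* and *Tcf4* were tested, and *Klk1* was not analysed here. All 3 were higher, and 0 were called. Their sums were 13.3 to 16.3 CPM in HFD Inpp4b-/- and 11.0 to 13.6 in HFD WT, with the defining marker *Siglech* at 0 in at least 1 library. How much each gene gave to these sums is not reported here. T cell and NK cell markers were near the limit of detection, with sums of 2.48 to 3.62 and 1.27 to 5.86 CPM, and *Cd3g*, *Nkg7*, *Gzmb* and *Klrb1c* at 0 in at least 1 library. Only 1 of them was tested, and it was lower in HFD Inpp4b-/-. B cell markers summed to 3.34 to 5.12 CPM in HFD Inpp4b-/- and 1.79 to 4.50 in HFD WT, with 5 of 5 higher and 0 called. Neutrophil and monocyte markers summed to 1.83 to 3.36 and 0.438 to 5.53, with 2 of 4 higher. Endothelial markers summed to 91.6 to 141 and 107 to 135, with 2 of 5 higher. Stellate cell markers summed to 162 to 222 and 156 to 213, with 3 of 5 higher and a median log2 fold change of 0.56. Cholangiocyte markers summed to 3.47 to 8.24 and 4.65 to 8.76, with 3 of 4 higher and a median of 0.44. In each list 0 were called. The 7 hepatocyte markers, which define the labelled tissue, summed to 75900 to 97690 CPM over all 8 libraries, with 2 of 7 higher in HFD Inpp4b-/-. The part of these cells in the levels of the interferon-stimulated genes was not tested.

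Covariation over the 8 libraries was described with Pearson's r of log2 CPM. Pairs share their library and its depth, so no p is given for them. The median r over the 595 pairs of tested genes was 0.28, and 0.00 over all pairs of tested genes, and 12.3% of the pairs had r of at least 0.7, against 3.81%. After the genotype means were subtracted, the median was 0.24, with 11.6% of pairs at or above 0.7, against 4.98%. The median was also taken without HFD WT replicate 3, chosen after its low values were seen, and no other library was left out in this way. Without that library the median r was 0.12, with 9.75% of pairs at or above 0.7, against 5.37%. Among the classes of 3 or more genes the sensors had the highest median r, 0.66 over 6 pairs and 0.68 within genotypes. Without HFD WT replicate 3 it was 0.59 within genotypes, below the 0.71 of *Parp9*, *Dtx3l* and *Parp14*, over 3 pairs. *Parp9* and *Dtx3l* share exonic bases, and the part of these in their r was not tested. The 4 *Ifit* genes had a median r of 0.59, 0.19 within genotypes and -0.17 within genotypes without HFD WT replicate 3.

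Within genotypes the closest pairs were *Herc6* and *Tap1* (r = 0.95), *Irf7* and *Irgm1* (0.94) and *Irf9* and *Iigp1* (0.92). The most opposed were *Oas1g* and *Rtp4* (-0.86) and *Stat2* and *Eif2ak2* (-0.81). *Gbp7* (r = 0.98 over 8 libraries), *Oas2* (0.93) and *Irgm1* (0.92) followed the mean of the 35 genes most closely, though they are part of it, while *Stat2* (0.01), *Gbp2* (0.02) and *Rtp4* (-0.03) did not follow it, and *Oasl1* (-0.13) and *Dtx3l* (-0.25) had the lowest r with it. *Igtp*, the gene called between genotypes, had 0.66. The 10 tested genes outside the list whose levels were most like that mean were *Zfp729b* (0.95), *Gm49024*, *Naif1*, *Defb1*, *Myo1g*, *Gm5514*, *Fbxo40*, *Fam189a2*, *4930481B07Rik* and *Pepd* (0.93). Of these 10, 0 came from the lists of other interferon pathway genes. Those lists held only 81 of the 14866 tested genes, so little can be read from that 0.

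**Figure D5:**
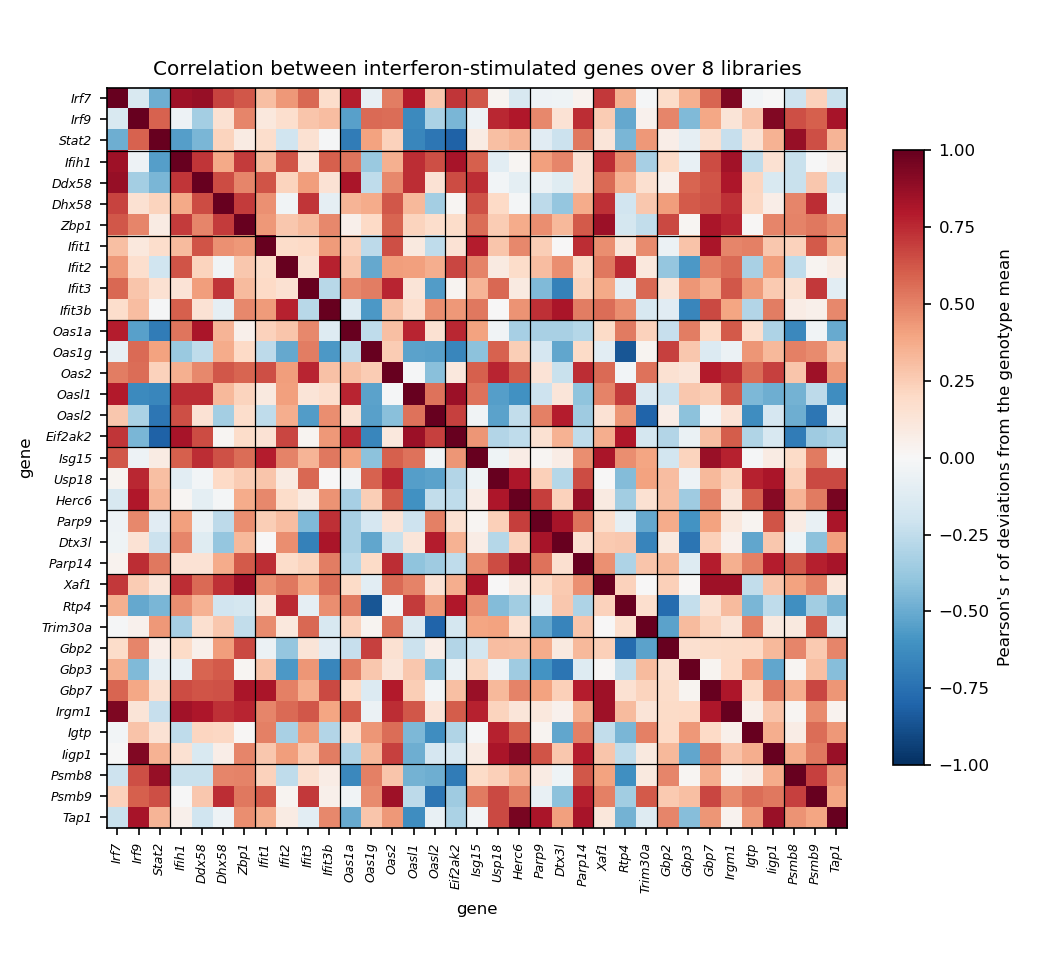
Pearson's r between each pair of the 35 tested genes over 8 libraries, after the mean of each genotype was subtracted, with gene classes divided by lines. The sensors form a block of positive values (median 0.68), and *Stat2* runs against *Eif2ak2* (-0.81).

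Then 6 pairs of partners or neighbours were tested with exact permutation tests over the 40320 orders of 8 libraries, and 0 passed after adjustment over the 6 (smallest adjusted p = 0.343 for r and 0.490 for rho). *Stat2* and *Irf9* had r = 0.59 and rho = 0.67 (exact permutation, p = 0.124 and 0.0831). Their r fell to 0.03 without HFD WT replicates 1 and 4, the 2 libraries farthest from the median of *Stat2*. Leaving out the most extreme values can by itself lower r. With 1 library left out, r was 0.46 to 0.82, lowest without HFD WT replicate 3. Within genotypes r was 0.59 and rho 0.52. *Parp9* and *Dtx3l* had r = 0.55 and rho = 0.41 (exact permutation, p = 0.160 and 0.327), and 0.52 without 2 libraries. Within genotypes their r was 0.82 and rho 0.76 (permutation over all 8 libraries, p = 0.0154 and 0.0368, adjusted 0.0923 and 0.208). That permutation moved deviations between the genotypes as if they were 8 free values, so these p-values are not exact. *Parp9* and *Dtx3l* share 458 exonic bases on opposite strands, and the strand setting of the counting is not given. The part of those bases in their r was not tested. For *Irgm1* and *Igtp* r was 0.54 and rho 0.52 (exact permutation, p = 0.171 and 0.197), for *Irf7* and *Oasl2* 0.47 and 0.45 (p = 0.249 and 0.267, exact permutation), for *Isg15* and *Usp18* 0.37 and 0.24 (p = 0.361 and 0.582, exact permutation) and for *Psmb9* and *Tap1* 0.27 and 0.24 (p = 0.551 and 0.582, exact permutation). Without the 2 libraries farthest from the median of the first gene, these 4 values of r were 0.04, 0.67, 0.02 and -0.15. Within genotypes they were 0.05, 0.27, -0.04 and 0.40.

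Genes that lie before interferon in the pathway, or carry its signal, were also read. Of 37 such genes, 29 were tested, and 11 were higher and 18 lower in HFD Inpp4b-/-, with a median log2 fold change of -0.12. Of the 29, 1 passed, beside 1.17% of all tested genes. It was *Irf5* (ENSMUSG00000029771, chromosome 6, 29526625 to 29541871), a transcription factor that acts below Toll-like receptors. It had 19.5, 15.3, 16.2 and 26.4 CPM in HFD WT and 8.52, 9.25, 12.5 and 9.63 CPM in HFD Inpp4b-/-. All HFD Inpp4b-/- libraries lay below all HFD WT ones. The log2 fold change was -0.96 (standard error 0.19, edgeR adjusted p = 0.0774), and the call was lost without HFD WT replicate 1 or any one HFD Inpp4b-/- library (adjusted p from edgeR of 0.108 to 0.212). *Irf5* shares 411 of its 2905 exonic bases with *Tnpo3* on the opposite strand. *Irf1*, an interferon-induced transcription factor gene, had a log2 fold change of -0.27, *Irf3*, which starts the interferon response, -0.01 and *Ifnar1*, a chain of the type I interferon receptor, 0.01. The interferons *Ifnb1*, *Ifng*, *Ifnk*, *Ifna4*, *Ifnl2* and *Ifnl3*, like *Tlr9*, were not analysed here.

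Another 53 interferon-induced genes were listed, of which 52 were tested. There, 34 were higher and 18 lower, with a median log2 fold change of 0.15. Of the 52, 1 passed, beside 1.17% of all tested genes. It was *Gbp9* (ENSMUSG00000029298, chromosome 5, 105077630 to 105139539), a guanylate-binding GTPase. It had 3.61, 4.00, 3.34 and 2.15 CPM in HFD WT and 7.49, 8.07, 5.05 and 6.68 CPM in HFD Inpp4b-/-. The groups did not overlap. Its log2 fold change was 1.06 (standard error 0.23, edgeR adjusted p = 0.0937), and the call was lost when any library other than HFD WT replicate 2 was left out (adjusted p from edgeR of 0.114 to 0.238). *Gbp9* shares 60 exonic bases with each of its relatives *Gbp4* and *Gbp8*. *Mx1*, a classic antiviral GTPase gene, had 0.184, 0.756, 0.371 and 0.269 CPM in HFD WT and between 0.386 and 0.555 in HFD Inpp4b-/- (log2 fold change 0.22, edgeR adjusted p = 0.874). *Cxcl10*, an interferon-induced chemokine gene, had 0.472 to 3.73 CPM in HFD WT and between 0.0843 and 1.42 in HFD Inpp4b-/- (-1.11, edgeR adjusted p = 0.575), and its log2 fold change was -0.41 without HFD WT replicate 4. Both genes overlapped between the genotypes.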

How the data were processed

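Raw counts of liver RNA-seq reads were deposited by the authors, who used HISAT2 for alignment to GRCm38 and HTSeq to count paired-end reads per gene. Annotation release and strand setting of the counting are not given in the sources used here. Each of the 18095 genes had at least 1 read in all libraries of 1 genotype. A second table, of normalized values, was not used.

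Identifiers were matched to GENCODE M21. Genes were tested with edgeR 4.0.16 (TMM, filterByExpr, quasi-likelihood test, genotype as the only term, Benjamini-Hochberg adjustment over 14866 genes) and called at an adjusted p under 0.10 and a fold over 1.3. The biological coefficient of variation was 0.251. CPM used TMM-scaled totals, and correlations used log2 CPM with a prior count of 2. For genes below the filter, log2(CPM + 0.1) was compared by an exact permutation test. Replicates differed by more than sampling noise. The genes, lists, pairs and the rule for naming genes (all 36, called genes of the 2 other lists with 6 more, of which 1 is not reported here, *Inpp4b*, and the 10 genes most like the mean) were chosen with earlier results of these data known. Alternatives were DESeq2 1.42.0, 2 other normalizations, 2 other filters, 2 other thresholds, a fit with the replicate number as a block, and fits without each library. Versions were R 4.3.3, Python 3.11.15 and scipy 1.17.1.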

Additional observations from a re-analysis of the deposited data

Results flagged for a closer look

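Single libraries far from the other 3 of their genotype (Dixon's ratio above its 95% critical value) were found in 7 of 112 groups of 4 examined, where chance gives about 1 in 20, or 5.6. *Irf7* was high in HFD WT replicate 2, at 12.4 CPM against 7.64 for the next library. *Stat2* was high in HFD Inpp4b-/- replicate 4 (102 against 84.6 CPM) and *Psmb9* in HFD Inpp4b-/- replicate 2 (22.9 against 21.5 CPM). *Dtx3l* was low in HFD Inpp4b-/- replicate 1 (51.8 against 58.1 CPM). *Oas1g* was high in HFD WT replicate 4, at 0.653 against 0.135 CPM, and *Ifi44* low in HFD WT replicate 3, at 0.135 against 0.184 CPM, both on few reads. *Irf3* was high in HFD WT replicate 4 (64.2 against 57.1 CPM).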

How the results depend on the processing

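Depth limits the *Ifit*, *Oas* and *Ifi44* values, many of which rest on under 50 counts. Over all genes 174 were called, 688 with DESeq2, 71 at an adjusted p under 0.05, 26 with the replicate block and 53 to 345 without 1 library. Of the 35 interferon-stimulated genes 1 was called, 2 with DESeq2, 0 at an adjusted p under 0.05 or with the block, and 0 to 1 without 1 library. Of the other pathway genes, 81 in the main fit, 2 were called, 7 with DESeq2 (3 higher, 4 lower), 0 at the stricter p or with the block, and 0 to 2 without 1 library. Shares called over all genes were 1.17%, 4.04% with DESeq2 and 0.478% at the stricter p. They were 0.175% with the block and 0.35% to 2.26% without 1 library. Same-numbered libraries of the genotypes deviated with r of -0.17 to -0.01, and differently numbered ones with r of -0.0339 to 0.139. These values cannot show whether the numbers mark pairs. The median log2 fold change of the 35 genes was 0.17 to 0.34 without 1 library. *Irf3* turned to 0.0128 with upper quartile normalization.

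These log2 fold changes turned sign when 1 library or another was left out, with ranges of -0.21 to 0.0277 for *Irf9*, -0.20 to 0.0762 for *Stat2*, -0.0207 to 0.26 for *Ifih1*, -0.0788 to 0.20 for *Dhx58*, -0.017 to 0.40 for *Herc6*, -0.0101 to 0.13 for *Parp9*, -0.22 to 0.0707 for *Rtp4*, -0.11 to 0.26 for *Trim30a*, -0.0334 to 0.65 for *Gbp3*, -0.12 to 0.0019 for *Tap1*, -0.0779 to 0.0356 for *Irf3*, -0.0427 to 0.0674 for *Ifnar1* and -0.0077 to 0.74 for *Mx1*. Ranges of the genes that passed were 0.51 to 0.69 for *Igtp*, -1.08 to -0.77 for *Irf5* and 0.90 to 1.18 for *Gbp9*. The r of *Isg15* and *Usp18* turned to -0.0424 within genotypes and ranged from -0.16 to 0.62 without 1 library, and that of *Psmb9* and *Tap1* turned to -0.15 without the 2 farthest libraries. In alternatives chosen after seeing the data, the median r of all pairs (0.28) was 0.24 within genotypes and 0.12 without HFD WT replicate 3. The cause of these changes was not tested.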
